A study of Mus musculus with 6 samples.

Results

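CD96, DNAM-1, TIGIT and CRTAM are cell surface receptors of the immunoglobulin superfamily through which NK cells recognise nectins and nectin-like molecules on other cells. They were followed by the genes that encode them, Cd96, Cd226 (DNAM-1), Tigit and Crtam, on every probe set whose annotation gives that single symbol. Of these 4 genes, 3 had a probe set, 1 each, among 45101 probe sets and 18193 named genes. Tigit had none under its symbol or gene identifier and was not analysed here, so Cd96 alone stood for the inhibitory receptors, with Cd226 and Crtam on the activating side. The values came from 3 Runx3-/- and 3 WT (Runx3 +/+) samples of resting splenic NK cells, 1 Affymetrix array each, from ICR mice of 6 weeks. The cells were not stimulated, and were purified by removal of other cells and a sort for DX5 (CD49b). The labels name no cell type to which the loss of Runx3 was restricted, so other cells of these mice may lack it too. The design text speaks of individual mice, whereas the sex label reads male and female for every sample.

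The receptors bind a small set of ligands, some of them shared. DNAM-1, TIGIT and CD96 all bind CD155 (the poliovirus receptor, encoded by Pvr), DNAM-1 and TIGIT also bind nectin-2, and CRTAM binds the nectin-like molecule encoded by Cadm1. DNAM-1 works together with the integrin LFA-1 to trigger killing and cytokine release, CRTAM appears on activated NK cells and CD8 T cells and promotes their effector functions, and TIGIT and, in mouse NK cells, CD96 restrain these responses.

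Runx3 is a transcription factor that binds the RUNX motif, and the region before the start of Cd96 is shown because Cd96 had the smallest p of the receptors. The 250 bases upstream of the start of Cd96 (RefSeq, GRCm38.p6, chr16:46120249-46120498, minus strand, written along the gene) hold 1 RUNX motif, 28 to 23 bases before the start and given in capitals.
Cd96: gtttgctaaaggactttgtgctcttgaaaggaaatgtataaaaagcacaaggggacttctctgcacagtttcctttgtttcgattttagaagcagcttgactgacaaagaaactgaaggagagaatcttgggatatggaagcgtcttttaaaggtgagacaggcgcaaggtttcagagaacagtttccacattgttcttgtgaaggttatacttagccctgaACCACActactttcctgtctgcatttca
The capitals read TGTGGT on the other strand. On both strands, 32851 promoter windows of this length were searched for the variants of the motif. TGTGGT was in 14.0% of the windows, the variant TGTGGC in 15.7%, the variant TGCGGT in 5.1% and the variant TGCGGC in 9.47%, and 38.0% held at least 1 of these. No other variant was found before Cd96. The match describes letters only, and binding of Runx3 was not analysed here. The promoter table used here gave no entry for Crtam or Cd226.

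Across the whole series, 17074 to 17771 probe sets per array had a log2 signal of at least 5, the level that stood for background. The targeted gene read 7.76, 8.51 and 8.68 on the Runx3-/- arrays and 10.11, 11.56 and 10.73 on the WT arrays, as log2 signals of Runx3 (probe set 1440275_at). This is a log2 change of -2.48, or 5.59-fold lower (limma, adjusted p = 0.0565), and its other probe set reached log2 5 on 1 array only. NK markers were present in both groups, with a mean log2 level of 13.5 to 13.7 over 12 genes on each array. Markers of other cells also had signal. The Runx3-/- samples had more of the basophil and mast cell list (mean log2 level 8.49 to 9.63, against 7.31 to 7.68 in WT) and of the B cell list (6.48 to 7.39, against 5.40 to 6.26 in WT). The study's thresholds were a change of at least 1.5-fold and p below 0.05 before adjustment. By these, 8 of 10 tested basophil and mast cell genes and 4 of 8 tested B cell genes were higher in Runx3-/- cells, as were 4.89% of all tested genes. Of these B cell genes, Cd79a reached log2 5 on the Runx3-/- arrays only.

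The activating receptor genes differed in direction, Crtam lower and Cd226 higher on average in Runx3-/- cells, and of these Crtam alone met the study's thresholds. Crtam read 4.24, 7.79 and 5.81 on the Runx3-/- arrays, against 7.72, 9.59 and 8.42 on the WT arrays, as log2 signals of probe set 1449903_at. The groups overlapped on 1 pair, since Runx3-/- replicate 2 lay above WT replicate 1, and 8 of 9 pairs had the Runx3-/- array lower. The means were 5.95 ± 1.78 in Runx3-/- cells and 8.58 ± 0.94 in WT cells (SD, n = 3 each). The log2 change was -2.63 (SE 0.86, 95% interval -4.64 to -0.61), a level 6.18-fold lower on the deposited values, and 5.19-fold lower with values under log2 5 raised to 5. It met the study's thresholds (limma, unadjusted p = 0.0172, adjusted p = 0.218), and the exact two-sided permutation test gave p = 0.2. Runx3-/- replicate 1 was the only one of the 6 arrays below log2 5 for Crtam. Leaving out that replicate gave a log2 change of -1.77 (limma, unadjusted p = 0.0506), and leaving out WT replicate 2 gave -2.12 (limma, unadjusted p = 0.0596), so the thresholds were then not met. The spread of Crtam between arrays of a group exceeded that of 99.1% of tested genes.

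Cd226 read 5.13, 6.27 and 5.29 on the Runx3-/- arrays and 5.31, 5.36 and 4.32 on the WT arrays, as log2 signals of probe set 1445388_at. These signals were near the background level, the highest being Runx3-/- replicate 2 and the lowest WT replicate 3, and the groups overlapped. The means were 5.563 ± 0.619 in Runx3-/- cells and 4.997 ± 0.588 in WT cells (SD, n = 3 each). The log2 change was 0.57 (SE 0.40), with a 95% interval of -0.366 to 1.497 that spans 0 and allows 0.776-fold to 2.82-fold (limma, adjusted p = 0.511; exact permutation p = 0.6). The change did not meet the study's thresholds, and with 3 arrays in each group no change and any other change within that interval remain possible.

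The inhibitory receptor gene Cd96 was lower in Runx3-/- cells on all arrays. It read 9.91, 9.35 and 9.52 on the Runx3-/- arrays and 10.64, 10.74 and 10.28 on the WT arrays, as log2 signals of probe set 1419226_at. The groups did not overlap, with 9 of 9 pairs lower in Runx3-/-. Among all tested genes, 16.8% were lower without overlap and 5.98% were higher without overlap. The means were 9.59 ± 0.29 in Runx3-/- cells and 10.55 ± 0.24 in WT cells (SD, n = 3 each). The log2 change was -0.96 (SE 0.24, 95% interval -1.51 to -0.41), 1.95-fold lower. Its p was 0.00418 before and 0.137 after adjustment (limma), and the exact permutation test gave p = 0.1, the smallest that 3 against 3 arrays can give. It met the study's thresholds with every single array left out, at log2 changes of -1.12 to -0.84. In bulk samples, fewer cells that carry a transcript and less of it per cell cannot be told apart.

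**Figure D1:**
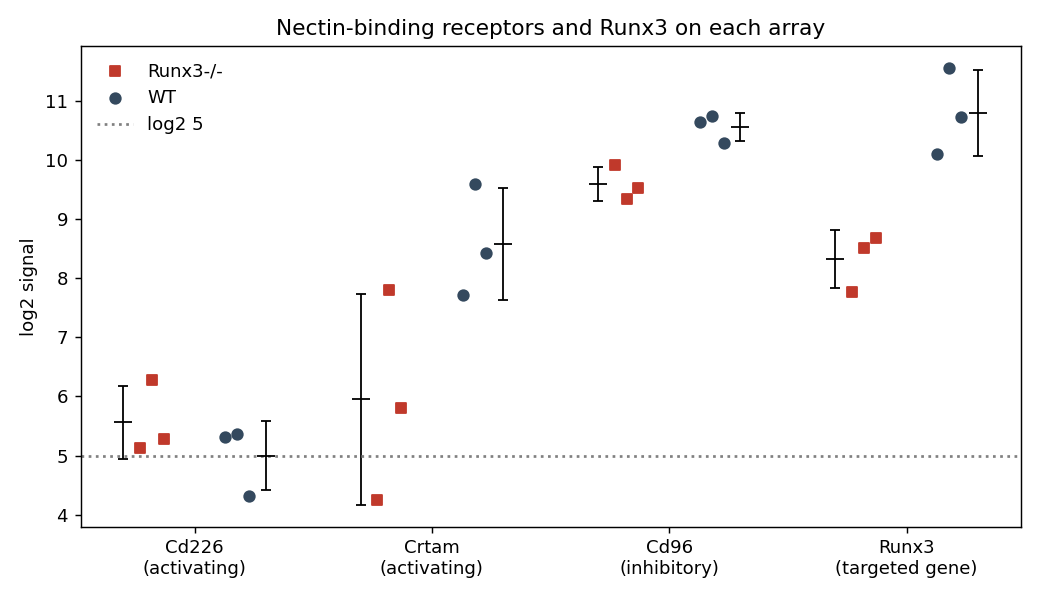
Log2 signal of Cd226, Crtam, Cd96 and Runx3 on each array, Runx3-/- squares left of WT circles, with bars for the mean ± SD of 3 arrays and a dotted line at log2 5. Cd96 and Runx3 have no overlap between groups, whereas Crtam and Cd226 overlap. Heights of different probe sets are not comparable.

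Of the 3 receptor genes, 2 (Cd96 and Crtam) were lower at the study's thresholds, which 8.86% of tested genes met in that direction, and none was higher, which 4.89% met. None of the 3 passed an adjusted p of 0.05 (limma, Benjamini-Hochberg), which 0.608% of the 9545 tested genes did, although 2 of the 3 had an unadjusted p under 0.05. The median log2 change of all tested genes was -0.13, and 64.4% of the genes at the study's thresholds were lower. With each array centred on its median, 44.3% were lower, and Cd96 (-0.84) and Crtam (-2.51) still met the thresholds. As a description, the change of Crtam ranked at the 0.168 percentile of all tested genes from the lowest, that of Cd96 at 3.32 and that of Cd226 at 90.4.

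**Figure D2:**
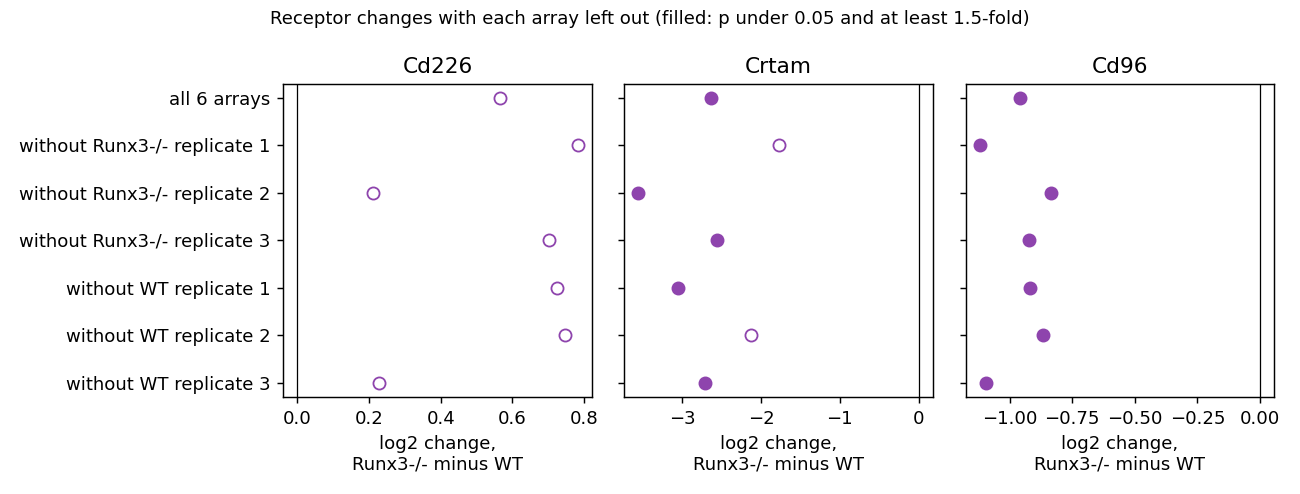
Log2 change, Runx3-/- minus WT, of Cd226, Crtam and Cd96 with all 6 arrays and with each array left out, where filled points met p under 0.05 and 1.5-fold in limma. Cd96 stays filled throughout, Crtam opens without Runx3-/- replicate 1 or WT replicate 2, and Cd226 is never filled.

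To set activating against inhibitory receptors, each gene was centred on its mean over the 6 arrays and the difference was taken on each array, as a description with no test. Cd226 minus Cd96 came to 0.01, 1.72 and 0.56 on the Runx3-/- arrays and to -0.53, -0.59 and -1.17 on the WT arrays. The groups did not overlap on this measure, and the mean difference was 1.53 on the log2 scale. The larger part of it came from Cd96, which did not overlap by itself (log2 change -0.96). The change of Cd226, near background, was 0.57, or 0.34 with values under log2 5 raised to 5. How many other pairs of genes separate the groups in this way was not counted. Crtam minus Cd96 came to -2.86, 1.26 and -0.90 on the Runx3-/- arrays and to -0.10, 1.66 and 0.95 on the WT arrays. Here the groups overlapped and the mean difference had the opposite sign, -1.67. The mean of both activating genes against Cd96 differed by -0.07 between Runx3-/- and WT cells, a sum of opposite parts whose sign turned without Runx3-/- replicate 1 (0.62) or without WT replicate 2 (0.18).

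**Figure D3:**
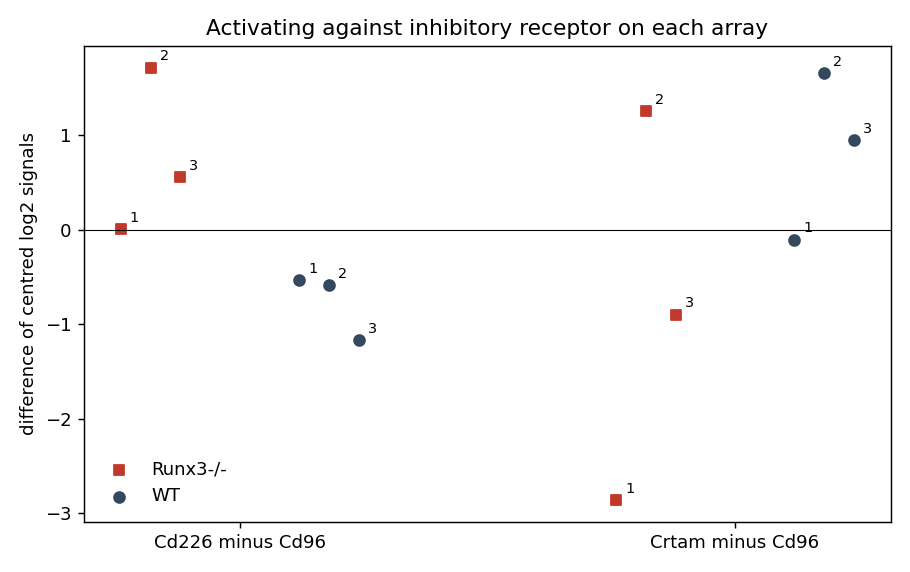
Difference of centred log2 signals on each array, Cd226 minus Cd96 and Crtam minus Cd96, with Runx3-/- squares left of WT circles and replicate numbers beside them. All 3 Runx3-/- arrays lie above all WT arrays for Cd226 minus Cd96, while Crtam minus Cd96 overlaps. Cd96 by itself also separates the groups.

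Among the ligands, Pvr was expressed in both groups, with log2 signals of 6.57, 6.34 and 6.32 on the Runx3-/- arrays and 6.63, 6.73 and 7.23 on the WT arrays. The groups did not overlap, as for 16.8% of all tested genes in this direction, and the log2 change of -0.45 did not meet the study's thresholds (limma, adjusted p = 0.372). A second Pvr probe set above background gave -0.31, and the other 5 were below log2 5 on all arrays. Cadm1, the ligand of CRTAM, read 6.85, 5.13 and 3.52 on the Runx3-/- arrays and 4.24, 4.16 and 4.22 on the WT arrays. Its log2 change was 0.96 (limma, adjusted p = 0.532), with Runx3-/- replicate 1 highest and replicate 3 below every WT array. The mean log2 level of the macrophage and monocyte markers ran in the same order over the Runx3-/- arrays, 8.44, 6.82 and 4.52, against 5.84, 5.64 and 5.64 in WT, and its part in the Cadm1 signal was not tested. Nectin1, Nectin2, Nectin3, Nectin4, Cadm3 and Cadm4 were below log2 5 on all 6 arrays. Pvrig, a related inhibitory receptor that binds nectin-2, had no probe set whose annotation gives that single symbol. Of 11 genes in this list, 3 were tested and none met the study's thresholds.

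The genes through which these receptors signal were counted at the study's thresholds, which 8.86% of all tested genes met as lower. In the DNAM-1 and LFA-1 list, 17 of 19 genes were tested, 2 were lower and 0 higher at the study's thresholds, and the median log2 change was 0.03, beside -0.13 for all tested genes. The LFA-1 chains Itgal and Itgb2 and the kinase Fyn had log2 changes of 0.19, 0.17 and -0.02 (genes named after their values were seen). Vav1, a signaling protein of lymphocyte receptors, read 9.74, 10.01 and 9.86 on the Runx3-/- arrays and 10.73, 10.58 and 10.78 on the WT arrays. Its log2 change was -0.83 (limma, adjusted p = 0.127), while a second probe set gave -0.18. Icam2, a ligand of LFA-1, read 11.42, 10.83 and 10.57 on the Runx3-/- arrays and 11.59, 11.62 and 12.04 on the WT arrays, a log2 change of -0.81 (limma, adjusted p = 0.229).

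The inhibitory tails recruit phosphatases. Of 8 genes tested in that list, 1 was lower, as were 8.86% of all tested genes, and 0 were higher. The median log2 change was -0.05. The lower gene was Ptpn6, which encodes the tyrosine phosphatase SHP-1, at 11.91, 11.56 and 12.04 on the Runx3-/- arrays and 12.73, 12.88 and 12.97 on the WT arrays. Its log2 change of -1.02 (limma, adjusted p = 0.101) was close to that of a second probe set, -0.80. CRTAM signals through the polarity protein Scrib in mouse T cells, and of 8 polarity genes tested 1 was lower and 0 were higher (median log2 change -0.11). That gene was Prkci, an atypical protein kinase C, at 8.87, 8.34 and 8.42 on the Runx3-/- arrays and 8.98, 9.22 and 9.57 on the WT arrays (log2 change -0.72; limma, adjusted p = 0.229). A second Prkci probe set was below log2 5 on all arrays, with a log2 change of -0.07.

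**Figure D4:**
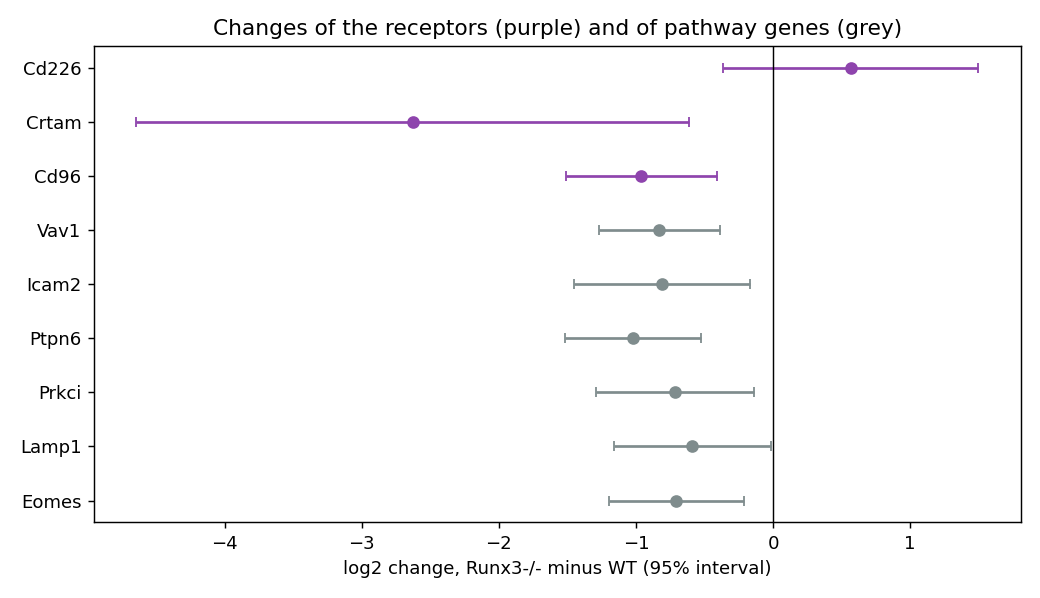
Log2 change, Runx3-/- minus WT, with its 95% interval from limma for the receptors (purple) and for the genes of the signaling, effector and NK marker lists that met the study's thresholds (grey), which therefore exclude 0 by selection. Only the interval of Cd226 spans 0.

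Of the effector genes that these receptors act upon, 11 of 12 were tested, with a median log2 change of -0.06. At the study's thresholds 1 was lower, near the share of all tested genes, 8.86%, and 0 were higher, against 4.89%. With each array centred on its median, 0 were lower and 1 was higher. Lamp1, whose protein reaches the surface when granules are released, read 12.22, 11.56 and 11.56 on the Runx3-/- arrays and 12.22, 12.50 and 12.39 on the WT arrays. The groups overlapped by the first array of each, and the log2 change was -0.59 (limma, adjusted p = 0.304). The perforin gene Prf1 and the interferon gene Ifng had log2 changes of -0.40 and 0.37 and did not meet the thresholds (named after their values were seen). In the NK marker list 1 of 12 genes was lower at the study's thresholds, again near the 8.86% of all tested genes. This gene was Eomes, a T-box factor of NK cell maturation, at 13.00, 13.40 and 12.99 on the Runx3-/- arrays and 13.71, 13.81 and 13.99 on the WT arrays (log2 change -0.70; limma, adjusted p = 0.185).

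Cd96 and Crtam are also known from T cells and Cd226 from T cells, monocytes and platelets, so the marker lists of these cells are given beside the receptors. Of all tested genes, 4.89% were higher and 8.86% were lower at the study's thresholds. None of 8 tested T cell genes met the thresholds, and the mean level of the 14 listed was 6.35 to 6.67 in Runx3-/- cells and 6.33 to 6.74 in WT cells. The list was mixed. Cd4, Cd6, Cd8a, Cd8b1, Trac and Trat1 were below log2 5 on all arrays, Cd5 reached it on 2, and Cd3d, Cd3e, Cd3g, Cd247, Cd28, Thy1 and Bcl11b were above it on all 6. In the basophil and mast cell list, the genes with the smallest p were Il6, Hdc, Cyp11a1, Ms4a2, Mcpt8 and Fcer1a, with log2 changes of 2.12, 1.99, 2.02, 2.29, 1.61 and 1.70, and only Ccr3 and Il3ra of the 12 genes with a probe set stayed below log2 5. Il4 (log2 change 0.89) and Cd200r3 (-0.36) were tested and did not meet the thresholds. In the B cell list Cd79a, Cd22, Ms4a1 and Fcmr met the thresholds with log2 changes of 2.46, 1.46, 2.001 and 1.08, and Pax5 alone stayed below log2 5. Cd79a reached log2 5 on the Runx3-/- arrays only, and was 1.74-fold higher with values under log2 5 raised to 5. Of the platelet list 1 of 5 tested genes (Itgb3, log2 change 1.59) was higher, at mean levels of 5.24 to 6.66 in Runx3-/- cells and 4.39 to 6.69 in WT cells. Pf4, a platelet chemokine, read 6.91, 10.03 and 9.53 on the Runx3-/- arrays and 6.37, 9.53 and 9.93 on the WT arrays, while Gp5, Gp6, Gp9, Treml1 and F2rl3 stayed below log2 5. Of the macrophage and monocyte list 3 of 12 tested genes (Adgre1, Cd163 and Cd14, log2 changes of 1.86, 1.29 and 1.52) were higher, and Fcgr1 stayed below log2 5. Cd14 reached log2 5 on Runx3-/- replicate 1 only, and was 1.16-fold higher with values under log2 5 raised to 5. The part of these other cells in the receptor values was not tested.

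Over the 6 arrays, which share both groups, each receptor gene had its own nearest patterns, given as Pearson correlations without a test. Those of Cd96 were Gon4l (0.989), Ddx24 (0.989) and Anxa2 (0.987). Those of Crtam were Kbtbd4 (0.988), Eif1ad (0.987) and Pdia6 (0.985), and those of Cd226 were Serpinb6b (0.990), Tm9sf3 (0.988) and Zfp961 (0.987). A correlation of at least 0.9 was reached by 203 of 9544 other genes for Cd96, 99 for Crtam and 52 for Cd226. Among the receptors the correlations were 0.53 for Cd96 with Crtam, 0.01 for Cd226 with Crtam and -0.46 for Cd96 with Cd226.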

How the data were processed

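The authors processed the arrays in Partek with GC-RMA, per the submitters' processing notes, which give no versions, and deposited log2 signals of 45101 probe sets on 6 arrays. GC-RMA models background from base content and brings the probe signals of arrays to a common distribution. A change in total RNA per cell therefore cannot be seen, and values near background follow that model. The deposited values still differed somewhat, with a median log2 signal of tested genes of 8.85 to 9.04 per array. The labels and the study's methods name different labelling kits.

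Probe sets were named by the platform annotation, in which 34945 had 1 symbol. Each gene was read on its probe set with the highest mean, and the 9545 genes with log2 5 or more on at least 1 array were tested by limma 3.58.1 (lmFit and eBayes) in R 4.3.3, with all 6 arrays, no covariate and Benjamini-Hochberg adjustment. The study names neither its test nor its background level, so limma's test and log2 5 stood in for them. The exact permutation test used all 20 assignments. The fit was also run on simulated data with independent normal noise for each gene. Those data held no batch and no mixture of cells, so the run cannot speak to such effects. The number of arrays limits the precision. The limma p-values set the difference between groups against the spread between these samples, moderated over all genes. Whether that spread lies between mice or between pools is not settled by the labels.

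The members and gene lists were chosen with earlier results of these data known. Named genes are Runx3, the receptors, the direct ligands and Pvrig, up to 6 genes per list at the study's thresholds with the smallest p, and the 3 genes most correlated with each receptor. Markers below log2 5 or above it on all arrays, Cd5, Pf4, Il4, Cd200r3 and the genes so marked in the text were named outside this rule, after their values were seen. Alternatives covered the filter, floor, normalization, probe set choice, moderation, array weights, a replicate block and leaving out each array.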

Additional observations from a re-analysis of the deposited data

How the results depend on the processing

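Over 19 alternatives Cd96 kept its direction and met the study's thresholds in all 19 (log2 change -1.12 to -0.84, adjusted p 0.0491 to 0.362 by limma). It passed an adjusted p of 0.05 only with limma's array weights (-1.09, adjusted p = 0.0491). Crtam kept its direction (-3.55 to -1.77, adjusted p 0.0785 to 0.448) and met the study's thresholds in 17, the exceptions being those without Runx3-/- replicate 1 or WT replicate 2, so that the number of receptor genes meeting them was 1 to 2 with 1 array left out. Cd226 kept its direction (0.21 to 0.78) and met them in none. The activating minus inhibitory change turned sign with array weights (0.0049) and without Runx3-/- replicate 1 (0.62) or WT replicate 2 (0.18), and ran between -0.83 and 0.62 with 1 array left out.

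Of all genes, 58 passed an adjusted p of 0.05. The number was 1 with no filter, 37 with values raised to log2 5, 12 with the mean of a gene's probe sets, 14 with every probe set tested on its own, 203 with array weights and 0 to 127 with 1 array left out, where the number at an unadjusted p under 0.05 was 1010 to 2017, against 1531 with all arrays. Testing every probe set gave 2123 at the study's thresholds, against 1313. With the replicate number as a block, 0 genes passed (1390 at an unadjusted p under 0.05), and the adjusted p was 0.215 for Cd96, 0.0785 for Crtam and 0.433 for Cd226. Arrays of the same number correlated at 0.07, -0.19 and 0.15 in their deviations from the group means. These values over all genes cannot decide whether such arrays share a preparation or batch, since some genes may follow the number and others not. In the DNAM-1 and LFA-1 list 1 to 3 genes were lower over the alternatives, and 1 was higher with arrays centred on their medians. In the inhibitory tail list 1 was lower in each. In the polarity list 0 to 2 were lower, with 0 for the mean of probe sets, without _x_at and _s_at probe sets, and without Runx3-/- replicate 2 or 3 or WT replicate 3, and 1 was higher without Runx3-/- replicate 1. In the effector list 0 to 3 were lower, with 0 under median centring, under quantile normalization and without Runx3-/- replicate 2 or WT replicate 2 or 3, and 1 was higher under median centring and without Runx3-/- replicate 2 or WT replicate 3. Centring left a median log2 change of -0.0072 over all genes. The causes of these shifts were not tested.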

Other observations

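The genes given here were chosen after their values were seen, and none met the study's thresholds. Ifng, the interferon that CD96 restrains in mouse NK cells, read 10.13, 10.15 and 10.18 on the Runx3-/- arrays and 9.77, 9.96 and 9.62 on the WT arrays, a log2 change of 0.37 (limma, adjusted p = 0.385), and its groups did not overlap, as for 5.98% of all tested genes in this direction. The chemokine gene Xcl1 read 10.02, 9.41 and 10.55 on the Runx3-/- arrays and 10.28, 10.90 and 11.40 on the WT arrays, a log2 change of -0.87 (limma, adjusted p = 0.315), with overlapping groups. The chemokine gene Ccl3 had a log2 change of 0.87 (limma, adjusted p = 0.374), with overlapping groups. Afdn, which encodes the adaptor that ties nectins to actin, read 8.91, 8.13 and 7.86 on the Runx3-/- arrays and 9.56, 8.66 and 8.998 on the WT arrays, a log2 change of -0.77 (limma, adjusted p = 0.326), and its groups overlapped.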
